A study of Mus musculus with 3 samples.

Results

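Fibroblasts of the connective tissue sleeve around the mouse aorta, its adventitia, that carried the transcripts of Dpp4 and Cd55 together with Sema3c, Dact2 and Limch1 were examined in 3 single-cell RNA libraries. A barcode was taken as a member when it had at least 2000 UMIs (molecules counted once each), at least 300 genes and at most 10% mitochondrial UMIs. Its 4 fibroblast genes Col1a1, Col1a2, Dcn and Lum had to make up at least 1% of its UMIs, it had to have no UMI of the leukocyte gene Ptprc, and at least 4 of the 5 named markers had to be detected. Of 45241 barcodes in all, 1843 were members: 1105 of 15093 in mice given saline (Vehicle), 401 of 10515 in mice given angiotensin II (AngII), and 337 of 19633 in mice given the same peptide that could also run in a wheel (AngII_VWR). Per the design text each group had 3 mice. Strain, sex, age, dose and duration were not given in the sources used here, and each group was 1 library. How the mice were combined was not stated, so there was no replicate and no statistical test between groups. Values are therefore given with 95% intervals for counting error alone, which say nothing of differences between mice or preparations.

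Dpp4 encodes dipeptidyl peptidase 4 (CD26), a membrane-bound protease, and Cd55 encodes decay-accelerating factor, which protects a cell from complement on its own surface. In connective tissue of the mouse, fibroblasts with these markers and with Pi16 lie in the outer sleeve around vessels and in fascia, and are described as a progenitor pool from which other fibroblasts and fat cells can arise. Sema3c encodes a secreted guidance cue, Dact2 a modulator of Wnt and TGF-beta signalling, and Limch1 a regulator of non-muscle myosin. Angiotensin II is a peptide hormone that raises blood pressure and is used in mice to stiffen the aorta, and whether running moderates that stiffening was the subject named in the title of the series.

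On the GRCm38 assembly (GENCODE M21), Dpp4 lay on chromosome 2 from 62330073 to 62412231 and Cd55 on chromosome 1 from 130439027 to 130462744. Sema3c lay on chromosome 5 from 17574281 to 17730268, Limch1 on chromosome 5 from 66745827 to 67057158, and Dact2 on chromosome 17 from 14195052 to 14204304. Dpp4, Cd55 and Dact2 are on the minus strand.

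The libraries held 165977330, 141570158 and 105679209 UMIs in Vehicle, AngII and AngII_VWR. The median UMIs of a member were 21470, 21320 and 9837, over 4984, 4983 and 3427 genes, with 1.75, 2.31 and 1.93% mitochondrial UMIs. Fibroblasts that passed every other part of the rule and carried 0 to 3 markers, called other fibroblasts here, numbered 5223, 5565 and 10051, with a median of 10310, 13501 and 5420 UMIs. A leukocyte gate of 2470, 2139 and 1787 barcodes served as the level of free RNA, with a median of 14362, 15760 and 6939 UMIs. Depth therefore differed most between AngII_VWR and the rest, and counts in AngII_VWR were also made with a later Cell Ranger version. Depth, version and treatment cannot be told apart between whole libraries. Between 44 and 80 barcode sequences were shared by any pair of libraries, and none was a member in both.

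The genes that chose the members are given first, as a description. Dpp4 reached 202, 180 and 143 CPM (UMIs per 1000000 UMIs, summed over members) in Vehicle, AngII and AngII_VWR, against 7.23, 4.67 and 7.82 CPM in other fibroblasts. Cd55 reached 1233, 987 and 1021 CPM, against 103, 53.5 and 84.0 CPM in other fibroblasts. Dact2, the sparsest of the 5, stood at 190, 144 and 126 CPM and at 4.0, 1.83 and 3.04 CPM outside. These 3 markers were thus more than 10 times as high in members in every library. Sema3c was less restricted, with 1021, 869 and 803 CPM in members and 210, 64.9 and 106 CPM in other fibroblasts. Limch1 was measured at 358, 294 and 289 CPM in members and at 16.4, 5.30 and 12.9 CPM outside. A Dpp4 UMI was found in 83.5, 86.5 and 72.7% of members, and in 10.1, 7.39 and 10.9% of the leukocyte gate, whose median depths are given above. After each barcode was thinned to 2000 UMIs, these shares were 30.4, 27.2 and 25.2% in members and 3.20, 2.15 and 5.15% in leukocytes.

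The rule's threshold cut through a gradient of Pi16. Fibroblasts with exactly 4 markers, just inside, had 6127, 4510 and 3543 CPM of Pi16, and those with exactly 3, just outside, had 4471, 3075 and 3023 CPM. With all 5 markers Pi16 stood at 8072, 5136 and 5383 CPM, and with none at 2216, 922 and 924 CPM. Just inside there were 438, 201 and 231 barcodes, and just outside 516, 245 and 412. Pi16 thus rose step by step with the number of markers in every library, and so did Cd34 and Anxa3, described below. Ly6a, also below, rose up to 3 markers in every library but not steadily beyond. With 3, 4 and 5 markers it stood at 2873, 2826 and 2593 CPM in Vehicle. The same steps gave 2185, 2576 and 2319 CPM for AngII. AngII_VWR had 2104, 2096 and 2119 CPM. Median UMIs were 5352.5, 11372 and 4890 with no marker, and 21693, 21252.5 and 9495.5 with all 5. The part of depth in this gradient was not tested.

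**Figure D1:**
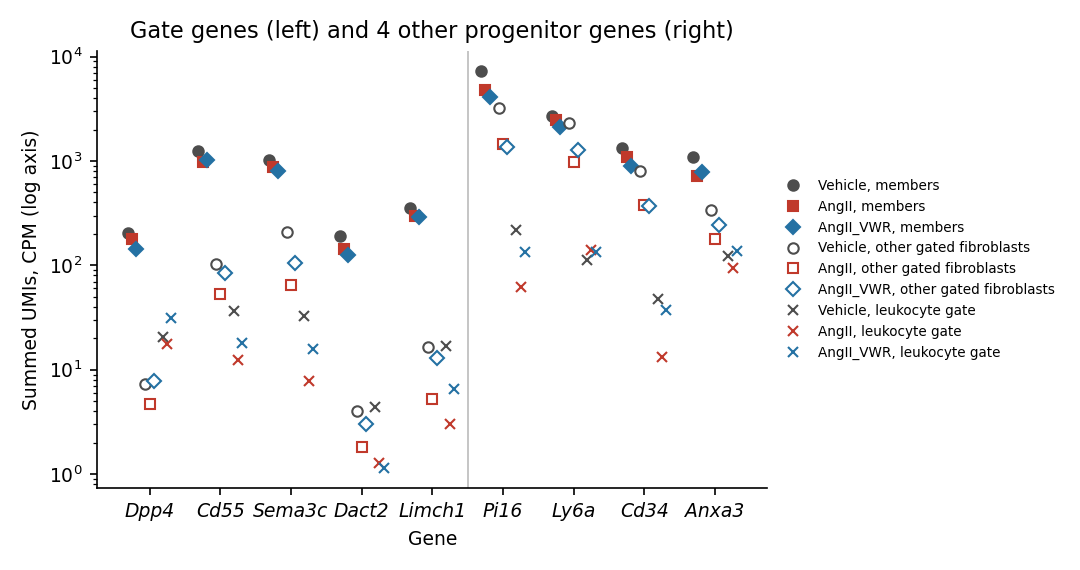
Summed UMIs in CPM (log axis) of the 5 gate genes and of Pi16, Ly6a, Cd34 and Anxa3 in members (filled), other gated fibroblasts (open) and the leukocyte gate (crosses), by library. Dpp4 lies between 143 and 202 CPM in members and below 8 CPM in other fibroblasts, while Pi16, Ly6a, Cd34 and Anxa3 are higher in members but not confined to them.

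The progenitor label was set beside genes that the rule did not use. Every gene of a barcode travels with its gate genes, so this too is a description. Pi16, a peptidase inhibitor that marks adventitial fibroblasts, was measured at 7331, 4827 and 4098 CPM in members and 3206, 1447 and 1368 CPM in other fibroblasts. Ly6a (Sca-1), a surface antigen of mouse progenitor cells, stood at 2682, 2446 and 2103 CPM against 2315, 972 and 1275 CPM. Cd34, another progenitor antigen, stood at 1316, 1092 and 903 CPM against 808, 376 and 369 CPM. Anxa3, an annexin, stood at 1086, 723 and 792 CPM against 335, 180 and 245 CPM. All 4 were higher in members in each library, by the least for Ly6a in Vehicle. Across 28 progenitor genes outside the gate, 27 were measured in all 3 libraries. In members 22 of them were at least 1.5-fold higher in each library and none was lower. Of all 8136 genes so measured, 5.47% were that much higher and 5.81% that much lower, which is the background for the counts between members and other fibroblasts.

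Genes of the committed and adipogenic fibroblast list were on the other side, with 15 of 18 at least 1.5-fold lower in members in every library and none higher. Mgp, an inhibitor of calcification, was measured at 345, 575 and 1229 CPM in members and at 2909, 7390.2 and 6568 CPM in other fibroblasts. Col15a1, a collagen of the zone beneath basement membranes, stood at 16.0, 29.2 and 20.4 CPM against 141, 164 and 103 CPM. Fmo2, a flavin monooxygenase, stood at 132, 66.2 and 145 CPM against 843, 572 and 730 CPM. In all 3 libraries the progenitor list was thus mostly higher in members and the committed list mostly lower. Both lists were chosen with earlier results of these data known, so this describes the members and does not test the label.

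Single genes stood further apart. Bmp6, a bone morphogenetic protein, stood at 82.0, 68.6 and 96.0 CPM in members and at 2.68, 1.78 and 4.86 CPM in other fibroblasts, the widest gap by the rule used to name genes. Pla1a, a phospholipase of phosphatidylserine, stood at 158, 245 and 178 CPM against 7.91, 10.1 and 13.4 CPM. Tek, the angiopoietin receptor Tie2, stood at 140, 126 and 94.8 CPM against 15.1, 6.38 and 8.51 CPM, while the 6 endothelial markers together reached 14.1 to 25.4 CPM in members, with Vwf, Egfl7, Kdr and Tie1 at 0 in AngII_VWR. Sema3e, a second class 3 semaphorin, stood at 88.0, 83.5 and 106 CPM against 12.2, 5.84 and 12.3 CPM. The other genes named as higher were Car8, Efhd1, Sbsn, Basp1, Gngt2 and Olfml2a. Ptgs1 (cyclooxygenase 1), which makes prostaglandin precursors, stood at 208, 128 and 198 CPM against 25, 11.3 and 32.3 CPM. Adra1b, an adrenaline receptor, stood at 28.7, 23.6 and 23.7 CPM against 5.00, 1.41 and 2.22 CPM, and it was the only one of 9 adrenergic receptors above 5 CPM in members.

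The matrix of the members had its own composition. Fbn1 (fibrillin 1), the backbone of microfibrils, was measured at 2999, 2848 and 3311 CPM in members and at 696, 578 and 694 CPM in other fibroblasts. Elastin itself (Eln) went the other way, with 261, 226 and 232 CPM against 834, 1201 and 987 CPM. Mfap4, a microfibril-associated protein, was also lower, at 162, 223 and 107 CPM against 1258, 1621 and 595 CPM. Of 16 elastic fibre genes, 6 were at least 1.5-fold higher in members in all 3 libraries and 7 lower. Of 8 hyaluronan genes 4 were higher and none lower, among them Has2, a hyaluronan synthase, at 209, 194 and 160 CPM against 45.9, 32.3 and 26.4 CPM. Vcan (versican), a hyaluronan-binding proteoglycan, stood at 498, 514 and 683 CPM against 171, 111 and 164 CPM. Adamts5, a protease that cleaves versican and aggrecan, stood at 1126, 865 and 746 CPM against 255, 155 and 181 CPM. Of 15 genes of the fibrillar collagen and cross-linking list, 5 were lower in all 3 libraries and none was higher. The fibrillar collagens Col1a1 and Col1a2 were also used by the rule, and no count without them is given. Of the rule's 4 fibroblast genes, 3 were at least 1.5-fold lower in all 3 libraries. Fmod (fibromodulin), a collagen-binding proteoglycan, had the widest gap below, at 14.0, 17.0 and 26.2 CPM against 231, 464 and 263 CPM. The others named as lower were Lsamp, Fbln7, Inmt, G0s2, Mdk, Mmp3, Crispld2, Rbp4 and Ccn5.

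**Figure D2:**
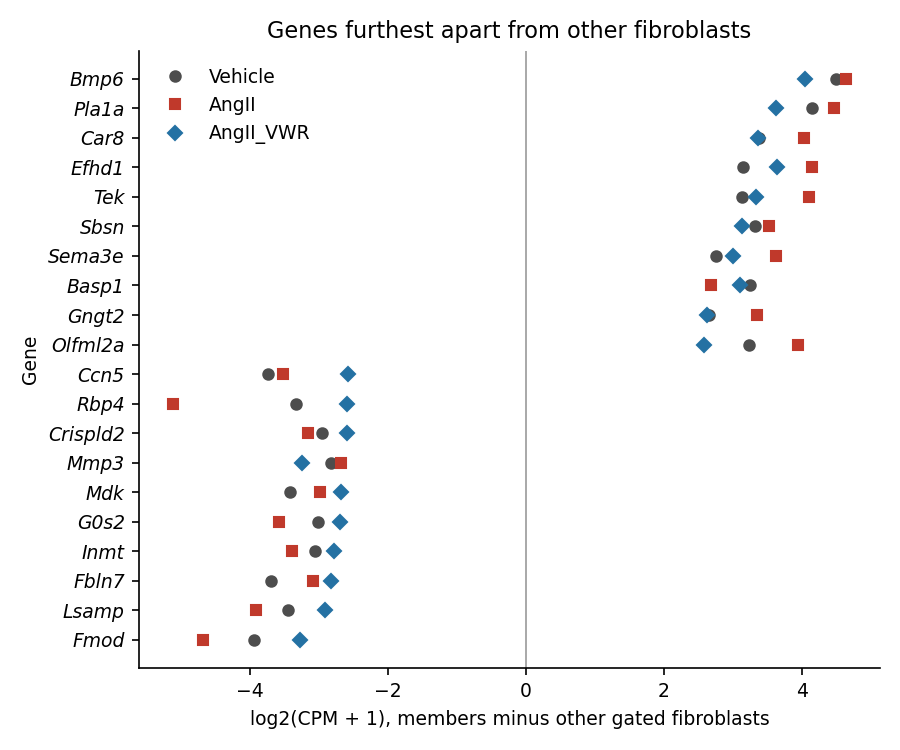
Difference in log2(CPM + 1) between members and other gated fibroblasts, by library, for the 10 genes furthest above and the 10 furthest below under the naming rule. All 3 libraries lie on the same side for each gene, which the naming rule requires, and the genes were chosen by this difference.

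Among themselves, members varied most in a small group of genes. Counts were thinned to 2000 UMIs per barcode, and the variance over the mean (Fano factor, 1 for pure counting noise) had a median of 1.06, 1.07 and 1.06 over 2839 genes. Igfbp5, which binds insulin-like growth factors, had factors of 8.29, 14.1 and 11.4, and Tnfaip6, a hyaluronan-modifying protein induced by inflammation, 7.26, 8.25 and 6.93. Pi16 had 7.31, 6.5 and 7.28, whereas Ly6a had 1.95, 1.84 and 1.51 and Cd34 had 1.19, 1.37 and 1.30. The factor also depends on the mean, and their thinned means in Vehicle were 15.4, 5.40 and 2.70 UMIs. Cd55, a gate gene with a thinned mean of 2.45 in Vehicle, had a factor of 3.54 there. Ccl2 and Ccl7, chemokines that attract monocytes, were among the 10 highest as well, with 9.47, 9.33 and 5.87 for Ccl2. Pi16 per barcode ranged from 0 to 476 UMIs per 10000 in Vehicle with a median of 69.8, and its medians in AngII and AngII_VWR were 46.7 and 38.1.

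Some markers of other cell types moved with the library. The 8 macrophage markers summed to 192, 168 and 522 CPM in members, against 25183, 27820 and 19356 CPM in the leukocyte gate and 287, 258 and 726 CPM in other fibroblasts. None of the 8 was at 0 in members. C1qa, a complement gene of macrophages, had a UMI in 35.3, 39.2 and 57.0% of members and 87.1, 89.8 and 85.7% of leukocytes. The 6 smooth muscle markers summed to 230, 30.5 and 48.5 CPM, with Des at 0 in AngII_VWR, and the 5 erythroid markers to 1871, 218 and 29.8 CPM, against 3599.8, 605 and 261 CPM in leukocytes. The 6 mesothelial markers summed to 17.9, 3.72 and 4.18 CPM in members and to 0.38, 0.15 and 0.21 CPM in other fibroblasts. In members Upk1b and Lrrn4 were at 0 in every library, and Msln and Krt8 were at 0 in AngII and AngII_VWR. T cell and B cell markers stayed below 2 CPM and neutrophil markers below 4 CPM. The part of these markers in the results below was not tested except where a value is given.

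The first comparison asked whether fewer adventitial fibroblasts were members after angiotensin II. Members made up 17.5% of gated fibroblasts in Vehicle (interval 16.5 to 18.4%) and 6.72% in AngII (6.10 to 7.39%), a ratio of 0.385 (0.342 to 0.432). In AngII_VWR they made up 3.24% (2.91 to 3.60%), a ratio of 0.483 to AngII (0.416 to 0.559). The rule counts detected markers and so depends on UMIs per barcode. AngII was below Vehicle in every range of depth, though from 2000 to 5000 UMIs there were only 4 and 1 members and the interval of the ratio was 0.00769 to 3.83. Among fibroblasts with 10000 to 20000 UMIs, 16.7% were members in Vehicle, 5.49% in AngII and 12% in AngII_VWR. AngII over Vehicle was then 0.328 (0.270 to 0.398), and AngII_VWR over AngII was 2.19 (1.73 to 2.78), the opposite direction. Between 5000 and 10000 UMIs the shares were 3.77, 1.94 and 3.19%, with ratios of 0.514 (0.294 to 0.868) and 1.65 (1.04 to 2.74). Between 20000 and 40000 UMIs they were 47.9, 16.4 and 13.3%, the last from 16 of 120 barcodes, and AngII_VWR over AngII was 0.814 (0.457 to 1.35).

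Fibroblasts with at least 5000 UMIs were thinned to that number, which left out 1224, 808 and 4488 barcodes, and 12.2, 3.72 and 2.78% then had 4 markers. Thinned to 10000 UMIs, with 2604, 1892 and 9061 left out, 22.4, 6.41 and 9.27% had 4. When Vehicle and AngII were thinned to the totals of AngII_VWR, chosen after seeing the data, 10.3, 3.45 and 3.24% were members. Depth was still not equal in that version. Median UMIs were then 4733, 4949.5 and 5517 in gated fibroblasts, and 6305, 6277 and 9837 in members. AngII was thus below Vehicle in every version, while AngII_VWR was above AngII in some and below it in others. Over only those gated fibroblasts that had at least 5000 UMIs and were thinned to that number, the 5 markers summed to 895, 314 and 331 CPM. Over all gated fibroblasts at full depth, each of the 5 was lower in AngII_VWR than in AngII. Cd55, for example, stood there at 426, 148 and 135 CPM. These are the rule's own genes, so the sums describe the same difference as the shares. A fibroblast is also only counted if the 4 fibroblast genes reach 1% of UMIs, and 3 of those were at least 1.5-fold higher in members of AngII than of Vehicle. When that limit was raised to 2%, the AngII over Vehicle ratio was 0.775.

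**Figure D3:**
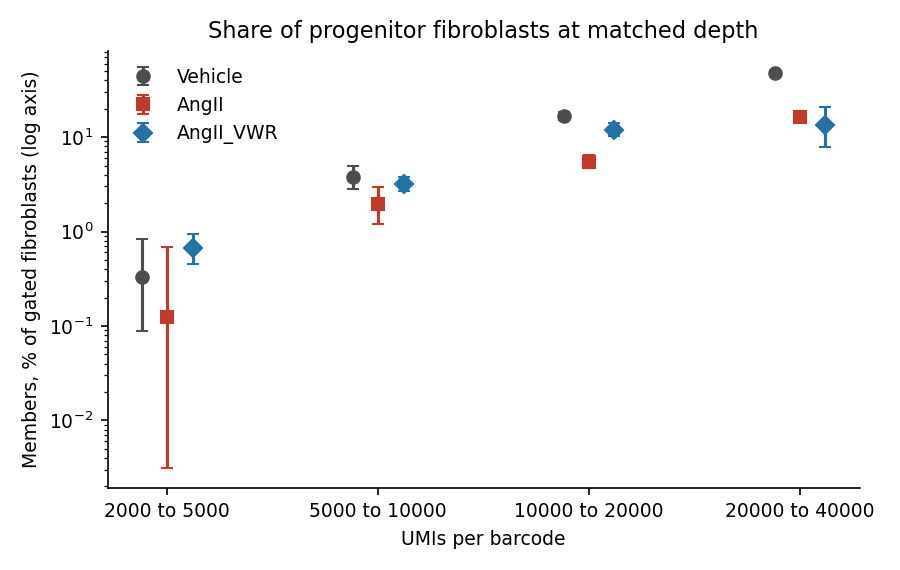
Members as a percentage of gated fibroblasts (log axis) in 4 ranges of UMIs per barcode, by library, with 95% Clopper-Pearson intervals for counting error alone. AngII lies below Vehicle in each range, and AngII_VWR lies above AngII in the 3 ranges below 20000 UMIs and below it from 20000. The intervals of AngII and AngII_VWR are apart only from 10000 to 20000 UMIs.

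The next question was how the members themselves differed after angiotensin II. Of 8452 genes measured in members (mean of at least 10 CPM and at least 20 UMIs over the 2 libraries), 338 were at least 1.5-fold higher in AngII than in Vehicle (4.0%) and 181 were at least 1.5-fold lower (2.14%). The median log2 ratio of all of them was -0.02. This comparison and the one with running share the AngII library, so an unusual value in AngII enters both with opposite sign.

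Myofibroblast genes were mostly higher, 8 of their 12 measured genes being at least 1.5-fold higher and 2 lower, with a median log2 ratio of 1.27. The rise was not particular to members. In other fibroblasts 10 of 13 were higher and 2 lower, against 5.94% and 4.01% of all genes there, with a median of 2.09. Postn (periostin), a matrix protein of activated fibroblasts, stood at 62.0 CPM in Vehicle, 802 in AngII and 606 in AngII_VWR, 12.9-fold higher in AngII than in Vehicle (12.2 to 13.7). Cthrc1, a secreted protein of matrix-producing fibroblasts, stood at 22.4, 146 and 105 CPM, 6.52-fold higher in AngII (5.90 to 7.22), with a log2 ratio of 2.65 that was 2.03 among members of 10000 to 20000 UMIs. Runx1, a transcription factor of fibroblast activation, stood at 17.7, 132 and 114 CPM, 7.46-fold higher (6.67 to 8.35), although its leukocyte level was 623, 756 and 508 CPM. Postn was higher in members than in other fibroblasts in AngII, where these had 472 CPM, whereas Cthrc1 had 216 CPM there. Among members of 10000 to 20000 UMIs, a range chosen after seeing the data, the median of the list was 0.51. Thbs4, a thrombospondin of activated fibroblasts named after its values were seen, had a UMI in 0.181% of members in Vehicle, 6.73% in AngII and 0.297% in AngII_VWR, with 1.78% of leukocytes in AngII. Among other fibroblasts the shares were 0.172, 11.0 and 3.27%. One barcode held 50.8% of the Thbs4 UMIs in AngII members.

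Acta2 and Tagln, the contractile genes of the same list, went the other way. Acta2 (smooth muscle actin) stood at 126, 15.5 and 22.3 CPM and Tagln (transgelin) at 78.9, 11.3 and 23.7 CPM. Their levels in the leukocyte gate had the same order, with 251, 19.5 and 37.6 CPM of Acta2. The 5 richest of 1105 barcodes held 42.7% of the Acta2 UMIs of Vehicle members, and without them 72.9 CPM remained. With free RNA subtracted the log2 ratios were -1.48 for Acta2 and -0.99 for Tagln, against -2.95 and -2.70.

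Among 15 genes of the fibrillar collagen and cross-linking list, 6 were at least 1.5-fold higher in AngII and none lower, with a median of 0.48. Other matrix lists had fewer: 2 of 16 elastic fibre genes (median 0.06), 1 of 7 hyaluronan genes (0.04) and 3 of 13 matrix proteases and inhibitors (0.11) were higher, and none was lower. No count of the collagen list without the rule's genes is given, and of the rule's 4 fibroblast genes 3 were at least 1.5-fold higher. Col3a1 stood at 2216, 5460 and 4815 CPM, 2.46-fold higher in AngII (2.43 to 2.49), and Col1a1, one of the gate's fibroblast genes, at 1768, 3625 and 2681 CPM, 2.05-fold higher (2.02 to 2.08). Fn1 (fibronectin), itself in the progenitor list, stood at 3400, 5780 and 5323 CPM, 1.70-fold higher (1.68 to 1.72). Mmp2, a gelatinase, stood at 181, 460 and 350 CPM, 2.55-fold higher (2.44 to 2.66). Igf1, insulin-like growth factor 1, stood at 77.9, 177 and 151 CPM, 2.27-fold higher (2.12 to 2.43). For each of these 5 genes AngII_VWR lay between the others, and for all but Col1a1 it was nearer to AngII in CPM.

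Of 27 measured genes outside the gate, 23 were below 0 on the log2 scale, 4 were at least 1.5-fold lower and 1, Fn1, was higher, with a median of -0.26. That is a larger share lower than the 2.14% of all genes. Pi16 was 1.52-fold lower in AngII than in Vehicle (upper bound 1.53), and Anxa3 was also 1.5-fold lower. Both lay at the limit, and among members of 10000 to 20000 UMIs their log2 ratios were -0.40 and -0.39, short of it. Stmn4, a stathmin, stood at 89.0, 45.7 and 44.4 CPM, and Smpd3, a sphingomyelinase, at 226, 125 and 89.0 CPM. Ly6a was 1.10-fold lower (1.08 to 1.11) and Cd34 1.21-fold lower (1.18 to 1.23). In other fibroblasts, 20 of 26 genes of the list were at least 1.5-fold lower in AngII, with a median of -0.96, where 4.01% of all genes were lower and 5.94% higher. Members are selected for progenitor markers in each library, so a smaller difference within them is partly set by the rule. Lypd2, a Ly6 family gene, stood at 56.7, 9.81 and 13.9 CPM. Bmp3, a bone morphogenetic protein, stood at 66.6, 18.6 and 23.4 CPM, 3.58-fold lower in AngII (3.05 to 4.23). Bmp6 did not share this pattern.

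Inflammatory genes were mostly higher in AngII members. Of 13 measured cytokines and chemokines, 7 were at least 1.5-fold higher and 2 lower, with a median of 0.63, which was 0.16 among members of 10000 to 20000 UMIs. In other fibroblasts 6 of 14 were higher and 1 lower, with a median of 0.33. Il6, an inflammatory cytokine, stood at 67.8, 206 and 29.3 CPM, 3.04-fold higher in AngII than in Vehicle (2.84 to 3.25). Cxcl1, which attracts neutrophils, stood at 547, 1214 and 231 CPM, 2.22-fold higher (2.16 to 2.28). Ptx3, a pentraxin of innate immunity, stood at 90.4, 275 and 43.5 CPM, 3.04-fold higher (2.87 to 3.22). C4b, a complement component whose reads can be shared with its near-identical neighbour C4a, stood at 51.2, 330 and 73.1 CPM, 6.46-fold higher (6.04 to 6.91). Its log2 ratio of 2.67 was 1.92 among members of 10000 to 20000 UMIs. Irf1, a transcription factor of the interferon response, stood at 123, 248 and 45.5 CPM, 2.01-fold higher (1.90 to 2.12). Icam1, a leukocyte adhesion molecule, stood at 18.4, 105 and 23.7 CPM. In all 6 genes AngII was the highest library, and for Il6, Cxcl1, Ptx3 and Irf1 AngII_VWR lay below Vehicle.

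Of 6 measured acute-phase genes 3 were at least 1.5-fold higher in AngII and none lower, with a median of 1.51, which was 0.73 among members of 10000 to 20000 UMIs. Some genes at the top of the ranking rested on few barcodes. Saa3, an acute-phase serum amyloid gene, stood at 0.248, 114 and 4.18 CPM, but 1 of 401 AngII members held 92.0% of its UMIs, and without that barcode the level was 9.19 CPM. Cxcl9, an interferon-induced chemokine, stood at 2.56, 71.2 and 0.558 CPM, and 5 barcodes held 92.6% of its UMIs in AngII. Hp (haptoglobin) stood at 10.6, 95.4 and 8.65 CPM, with 63.6% in 5 barcodes and 35.5 CPM without them, and its log2 ratio of 3.06 was 0.73 among members of 10000 to 20000 UMIs. C4b was spread more widely, with 17.5% of its UMIs in the 5 richest barcodes of AngII.

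**Figure D4:**
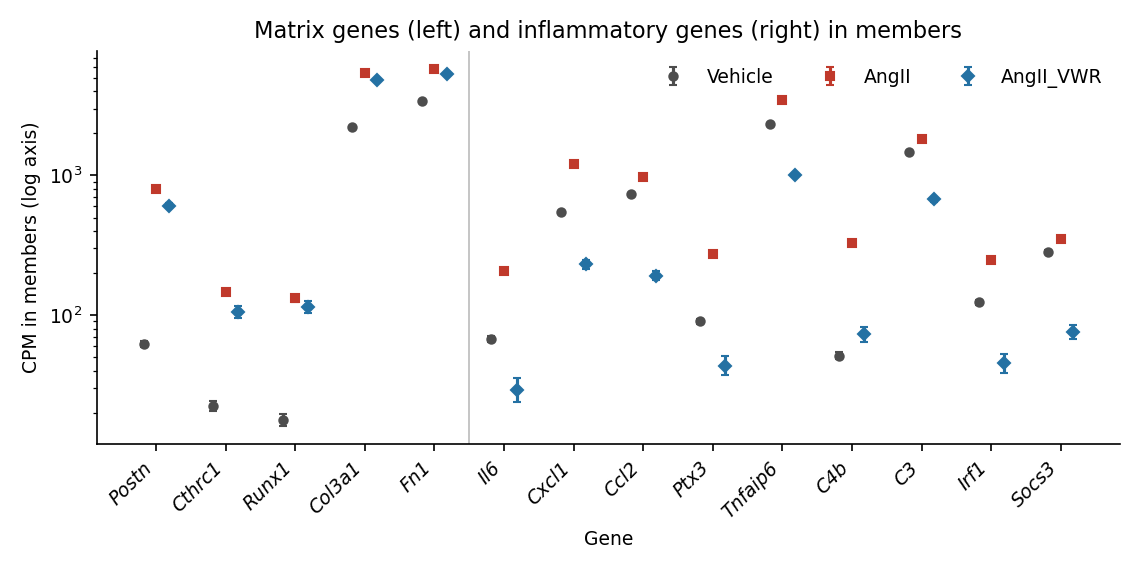
CPM in members (log axis) of 5 matrix and activation genes and 9 inflammatory genes, by library, with 95% Poisson intervals for counting error alone. AngII and AngII_VWR lie close together for Postn, Cthrc1, Runx1, Col3a1 and Fn1, whereas AngII_VWR lies below AngII for the inflammatory genes.

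Genes of the unfolded protein response were lower in AngII, with 8 of 17 at least 1.5-fold lower, none higher and a median of -0.49. Hspa5, the main chaperone of the endoplasmic reticulum, stood at 1798, 820 and 866 CPM, 2.19-fold lower in AngII than in Vehicle (2.14 to 2.25). Herpud1, which helps degrade misfolded proteins, stood at 324, 120 and 201 CPM, 2.69-fold lower (2.53 to 2.87). The list's median in other fibroblasts was -0.59, so it was not a difference of members alone. Of 10 heat shock genes none and none of 14 immediate early genes, which respond to tissue digestion, was 1.5-fold apart in members between AngII and Vehicle.

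The receptor of the infused hormone was scarce. Agtr1a, the main angiotensin receptor of the mouse vessel wall, stood at 12.9 CPM in Vehicle (11.5 to 14.4), 6.88 in AngII (5.26 to 8.84) and 5.30 in AngII_VWR (3.19 to 8.28), against 0.528, 0.307 and 0.286 CPM in leukocytes. The size of the difference between AngII and Vehicle changed with the setting, and why was not tested. Median UMIs of members in these 2 libraries were close, at 21470 and 21320. Its log2 ratio was -0.04 with members thinned to 2000 UMIs, -0.05 after thinning to AngII_VWR totals and -0.43 at 10000 to 20000 UMIs. Thinned to 2000 UMIs, 3.26% (2.29 to 4.48), 3.24% (1.74 to 5.48) and 1.78% (0.656 to 3.83) of members had an Agtr1a UMI. Agtr1b, Agtr2 and Mas1 were each below 4 CPM in members. Ace, the angiotensin-converting enzyme, stood at 225, 235 and 152 CPM in members against 178, 178 and 156 CPM in other fibroblasts.

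The last comparison set members of AngII_VWR against those of AngII. Of 8539 measured genes, 497 were at least 1.5-fold higher in AngII_VWR (5.82%) and 411 at least 1.5-fold lower (4.81%), with a median log2 ratio of 0.08 over all genes. In other fibroblasts the median of all genes was 0.11, against which their list medians below are to be read. The macrophage marker sum given above was also higher in AngII_VWR members.

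Of 14 measured cytokines and chemokines, 11 were at least 1.5-fold lower in AngII_VWR and none higher, with a median of -1.77. The same list had a median of -0.37 in other fibroblasts, with 6 genes lower and 1 higher against 4.61% and 6.55% of all genes there, and the difference between the populations was not tested. Among members of 10000 to 20000 UMIs the median was -1.34. Il6 was 7.04-fold lower in AngII_VWR than in AngII (5.78 to 8.66), Ptx3 6.31-fold lower (5.37 to 7.47) and Cxcl1 5.25-fold lower (4.90 to 5.65). Among members of 10000 to 20000 UMIs the log2 ratios were -2.03 for Il6 and -2.04 for Ptx3, against -2.77 and -2.63 over all members. Il6 was found in 43.1% of AngII members and 12.2% of AngII_VWR members, in 55.8 and 14.2% of their other fibroblasts, and in 22.3 and 6.83% of their leukocytes. After thinning to 2000 UMIs these shares were 18.2 and 2.67% in members, 38.2 and 8.20% in other fibroblasts, and 4.82 and 3.02% in leukocytes. At that depth the AngII_VWR members were thus near the leukocyte gate. How much of either level was free RNA was not tested. Ccl2, a monocyte attractant, stood at 742, 970 and 191 CPM, 5.07-fold lower in AngII_VWR (4.69 to 5.49), and its leukocyte level was higher in each library, at 5677, 3602 and 1749.5 CPM. Cxcl10 stood at 46.5, 94.4 and 1.12 CPM, the last from 4 UMIs, a ratio of AngII to AngII_VWR of 84.6 (32.9 to 311).

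Complement, acute-phase and interferon genes were lower too. For complement this was 6 of 9 genes with none higher and a median of -0.87, among them C3, the central component, at 1468, 1818 and 675 CPM, 2.69-fold lower in AngII_VWR (2.58 to 2.81). Cfb, factor B of the alternative pathway, stood at 146, 233 and 69.2 CPM, 3.37-fold lower (2.95 to 3.86). In other fibroblasts 3 of 10 complement genes were lower and none higher, with a median of -0.20. Of all genes there, 4.61% were lower and 6.55% higher, and the difference between the populations was not tested. Among acute-phase genes in members 4 of 6 were lower, with a median of -1.48, which was -0.28 among members of 10000 to 20000 UMIs. Interferon response genes were lower in 8 of 11, with a median of -1.15, although in AngII over Vehicle only 1 of 12 had been higher and 3 lower. Isg15, an interferon-induced modifier, stood at 88.1, 57.0 and 15.9 CPM. Of 14 immediate early genes 6 were lower and none higher, among them Socs3, a brake on cytokine signalling, at 284, 350 and 75.9 CPM, and Atf3, a stress-induced factor, at 1345, 1083 and 415 CPM. Immediate early genes respond to digestion of the tissue, and the part of the preparation in these differences was not tested.

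Tnfaip6 was the hyaluronan gene furthest apart, at 2350, 3467 and 1003 CPM, 3.46-fold lower in AngII_VWR than in AngII (3.34 to 3.58). Has1, a hyaluronan synthase, stood at 612, 628 and 261 CPM, 2.41-fold lower (2.25 to 2.58). Has2, by contrast, was 1.21-fold lower.

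Of 13 myofibroblast genes, 3 were 1.5-fold higher or more and 2 were lower, with a median of 0.02, which was 0.79 among members of 10000 to 20000 UMIs, while in other fibroblasts 7 of 13 were lower and none higher, with a median of -0.80. The difference between members and other fibroblasts was not tested. Postn was 1.32-fold lower in AngII_VWR than in AngII (1.26 to 1.39) and Cthrc1 1.39-fold lower (1.24 to 1.56). Ltbp2, which binds latent TGF-beta complexes and fibrillin, stood at 14.0, 53.8 and 114 CPM in members, 2.11-fold higher in AngII_VWR (1.84 to 2.41), and at 17.1, 133 and 75.9 CPM in other fibroblasts. None of 27 progenitor genes was 1.5-fold apart in members, with a median of -0.12, which was -0.17 among members of 10000 to 20000 UMIs. Pi16 was 1.18-fold lower (1.16 to 1.20), but among members of 10000 to 20000 UMIs its log2 ratio was -0.85, past the 1.5-fold limit.

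**Figure D5:**
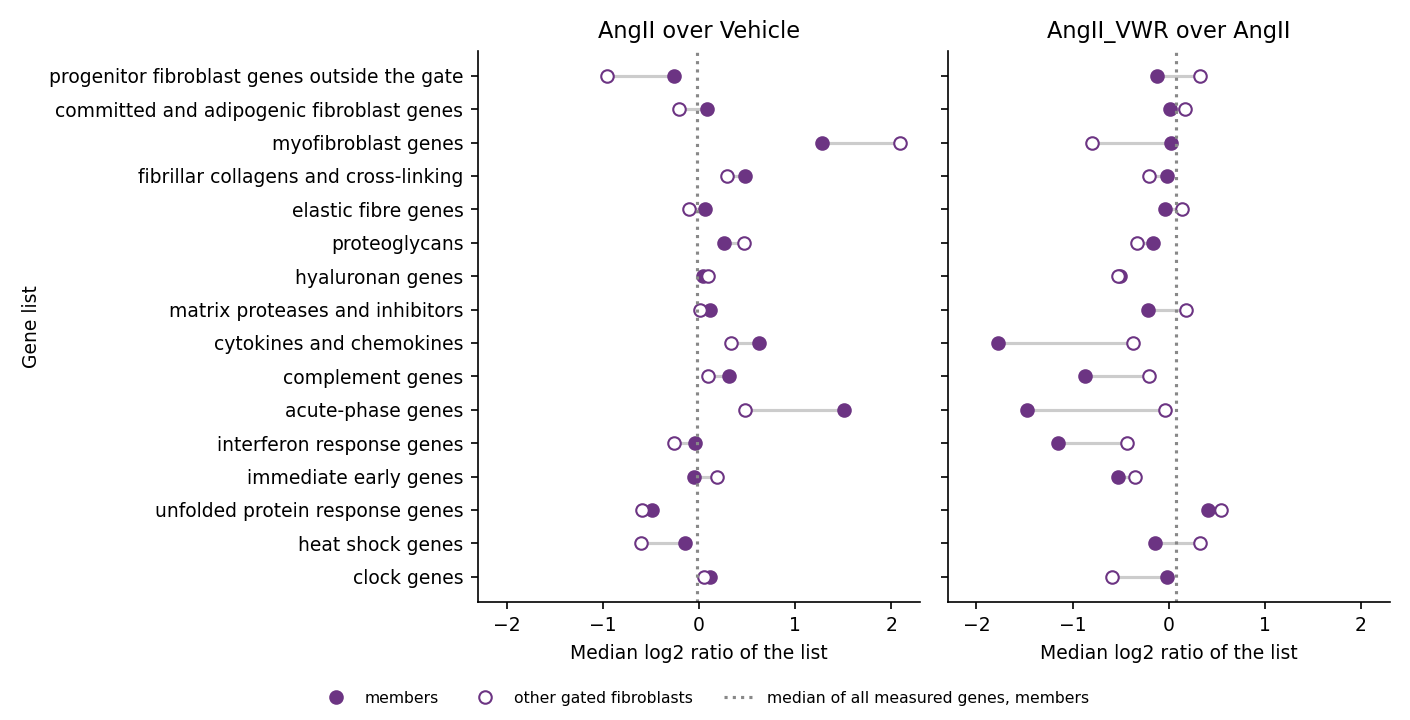
Median log2 ratio of each gene list in members (filled) and other gated fibroblasts (open) for AngII over Vehicle and AngII_VWR over AngII, with the median of all measured genes in members dotted. The cytokine list lies at 0.63 and -1.77 in members, and the progenitor list lies at -0.26 in members and -0.96 in other fibroblasts for AngII over Vehicle.

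Some of the genes furthest above in AngII_VWR members were also higher in its other cells. Polg2, a subunit of the mitochondrial DNA polymerase, stood at 10.8, 8.69 and 63.6 CPM in members, 8.96, 9.72 and 93.9 CPM in other fibroblasts and 20.2, 12.2 and 60.5 CPM in leukocytes. Tsc22d3 (GILZ), a target of glucocorticoids, stood at 92.9, 74.1 and 257 CPM in members and at 459.5, 303 and 454 CPM in leukocytes. Nasp, a histone chaperone, stood at 33.1, 24.8 and 80.6 CPM in members and at 63.2, 50.7 and 119 CPM in leukocytes. Mapk9, the kinase JNK2, stood at 58.2, 49.5 and 148 CPM in members and at 23.1, 20.2 and 24.4 CPM in leukocytes, where it was nearly level. With the fibroblast genes at 2% or more its log2 ratio was 0.35, and with 3 markers that of Gdf10 was 0.56, both short of 1.5-fold. Gdf10, a TGF-beta family member of the committed list, stood at 68.3, 36.0 and 108 CPM, 2.99-fold higher in AngII_VWR (2.57 to 3.48), against 511, 423 and 616 CPM in other fibroblasts. Rbp4, a retinol carrier, stood at 42.9, 10.9 and 76.7 CPM, and 1 barcode held 32.7% of its UMIs in AngII_VWR. Its log2 ratio of 2.70 was 1.29 with a fixed share of barcodes with the highest doublet scores removed. Of 17 unfolded protein response genes 6 were higher and 1 was lower, with a median of 0.41 in members and 0.55 in other fibroblasts. Manf, a secreted factor of that response, stood at 386, 243 and 401 CPM, so AngII was the lowest library.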

How the data were processed

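The deposited matrices held raw UMI counts per gene and barcode, and per the file headers Cell Ranger made them, in version 7.1.0 for AngII_VWR and 7.0.1 for the other 2 libraries. The build was mm10 per the submitters' processing notes, and whether intronic reads were counted is not given in the sources used here. Total counts per library were 105679209 to 165977330. Members were chosen by their measured counts, as described above, and both they and the gene lists were chosen with earlier results of these data known. UMIs were summed over members of each library and scaled to CPM. Ratios are log2 of CPM + 1, and folds are ratios of CPM. Intervals (95%) are exact Poisson for CPM, Clopper-Pearson for shares and exact conditional for ratios, for counting error only. The ratio script was tested on simulated data. Other settings were markers and fibroblast limits, depth, thinning, pseudocount, filters, free RNA and doublets. Doublets were kept, since the rule has no such step. As an alternative the highest Scrublet scores (scanpy 1.11.5) were removed, which took 10.9, 6.23 and 9.20% of members. Named genes were the 8 highest and 8 lowest per comparison and the 10 furthest apart from other fibroblasts on each side, with 50 CPM and 50 UMIs in the higher library and at least 0.5 times its leukocyte CPM. Up to 4 per list needed 50 CPM alone, and the gate genes and receptors were always named. The scripts ran under Python 3.11.15 with pandas 2.3.3, scipy 1.17.1 and numpy 2.4.6. Some results are not reported here.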

Additional observations from a re-analysis of the deposited data

Results flagged for a closer look

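Barcodes that met every limit except the absence of Ptprc, and so were left out of the members, also carried the markers. Of 219 such barcodes in Vehicle 48 had at least 4 of the 5 gate markers, in AngII 17 of 297, and in AngII_VWR 7 of 612. Median UMIs of these Ptprc-positive barcodes were 19148, 19995 and 7968. These barcodes lie outside every comparison, and what they are was not tested.

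Saa3 had opposite directions in the 2 fibroblast populations between AngII_VWR and AngII, with a log2 ratio of -4.47 in members and 2.17 in other fibroblasts. The difference between the populations was not tested. In AngII members 1 barcode held 92.0% of the Saa3 UMIs. A Saa3 UMI was found in 2.74% of AngII members and 4.15% of AngII_VWR members. Among members of 5000 to 20000 UMIs the log2 ratio was 1.43, the same direction as in other fibroblasts. The opposite direction over all members is therefore not a trait of members in general.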

How the results depend on the processing

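No paired analysis was possible because each group had 1 library. The share ratio of AngII to Vehicle, 0.385, was 0.318 with all 5 markers, 0.775 with the fibroblast genes at 2% or more, 0.306 after thinning to 5000 UMIs, 0.328 at 10000 to 20000 UMIs and 0.335 after thinning to AngII_VWR totals. The ratio of AngII_VWR to AngII, 0.483, was 0.666 with 3 markers, 0.304 with all 5, 0.671 from 5000 UMIs, 0.323 with the fibroblast genes at 2%, 0.747 after thinning to 5000 UMIs and 0.940 after thinning to AngII_VWR totals. It reversed to 1.13 at 5000 to 20000 UMIs and 2.19 at 10000 to 20000 UMIs. Counts higher and lower were 338 and 181 in AngII, and 497 and 411 in AngII_VWR. They became 693, 568, 1094 and 752 with the fibroblast genes at 2%, 829, 689, 1994 and 1206 without the filter on low values, and 701, 554, 943 and 773 with members thinned to 2000 UMIs. At 10000 to 20000 UMIs the AngII_VWR counts were 855 and 634, and after thinning to AngII_VWR totals 329 genes were lower in AngII. Saa3 in AngII_VWR over AngII, log2 -4.47, reversed to 1.40 after thinning to 5000 UMIs, 1.43 at 5000 to 20000 UMIs and 1.85 at 10000 to 20000 UMIs. Without barcodes of 40000 or more UMIs it was -0.99. Thinning and narrower ranges leave fewer UMIs, and the cause of the changes between settings was not tested. The range of 10000 to 20000 UMIs, the limit of 40000 UMIs and the thinning to AngII_VWR totals were added after seeing the data. That thinning left Vehicle and AngII with lower median UMIs than AngII_VWR, as given above.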
